A study of Homo sapiens with 9 samples.

Results

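RNU11, RNU12, RNU4ATAC, RNU6ATAC, RNU5A-1 and RNU5B-1 encode the small nuclear RNAs (snRNAs) U11, U12, U4atac, U6atac and the A and B forms of U5. They are 6 of the 26929 rows of the expression table and were taken by gene symbol. They were chosen by their measured normalised counts, from the difference between treated and DMSO libraries, so that difference is described here without a test. RNA came from MV4-11, an established acute myeloid leukaemia cell line, in 3 groups of 3 libraries: the vehicle DMSO, JPX-0700 and JPX-0750, each for 24 h. The series title presents both JPX compounds as agents that degrade STAT3 and STAT5, which are transcription factors, and the labels state no dose, so equal doses cannot be assumed. All 3 groups are the same line, for which the labels name no added allele, and they do not say whether replicates were separate cultures, so p-values measure the spread between these samples, which may be technical. Libraries were made with QuantSeq, a kit that primes on poly(A) and reads RNA near its 3′ end. Mature snRNAs carry no poly(A) tail as a rule, and the level of a row is the count of reads placed on it, which in bulk RNA cannot tell fewer cells of a kind apart from less RNA per cell.

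The minor spliceosome removes a rare class of introns, the U12-type introns. U11 and U12 together recognise the 5′ splice site and the branch point, U4atac escorts U6atac into the complex by base pairing, and U6atac then takes part in catalysis. U5 serves both the minor and the major spliceosome and holds the exon ends with its loop. All of these RNAs except U6atac are made by RNA polymerase II, are trimmed at the 3′ end by the Integrator complex and bind a ring of Sm proteins, whereas U6atac is made by RNA polymerase III and ends in a run of U that LSm proteins bind.

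The 4 RNAs of the minor spliceosome alone are shown whole, as DNA letters from GENCODE 29 on GRCh38, because their runs of A and their 3′ ends bear on a kit that primes on poly(A). Capitals mark ATTTTTG or ATTTTTTG, the core of the Sm binding site, and in RNU6ATAC the closing run of T. None of the 6 RNAs holds a run of 6 or more A, the longest being 5 in RNU11. Such a run is uncommon, in 6.63% of 1900 annotated snRNA transcripts and 11.1% of the last 130 bases of 200322 transcripts. Its absence from 6 RNAs therefore does not set them apart.
RNU11: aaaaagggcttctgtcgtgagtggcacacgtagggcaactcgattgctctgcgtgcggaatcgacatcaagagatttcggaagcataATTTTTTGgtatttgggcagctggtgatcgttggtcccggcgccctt
RNU12: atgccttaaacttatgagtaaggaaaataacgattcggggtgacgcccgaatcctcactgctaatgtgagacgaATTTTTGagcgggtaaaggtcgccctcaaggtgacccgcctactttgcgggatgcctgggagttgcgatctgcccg
RNU4ATAC: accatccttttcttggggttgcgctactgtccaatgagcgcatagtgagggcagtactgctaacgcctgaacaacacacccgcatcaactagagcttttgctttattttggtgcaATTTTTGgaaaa
RNU6ATAC: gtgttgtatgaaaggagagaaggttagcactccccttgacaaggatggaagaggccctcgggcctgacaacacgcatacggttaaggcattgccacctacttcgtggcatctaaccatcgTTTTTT

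The Sm word, searched on the transcript strand over whole RNAs, stood in 5 of the 6 RNAs and in 7.42% of annotated snRNA transcripts. Those transcripts were not split by family, so the share is no like comparison for RNAs that bind Sm proteins. Of transcripts of at least 130 bases, searched over the last 130 bases only, 3.09% held it. RNU4ATAC and RNU6ATAC held 3 stretches of perfect complement at least 7 bases long. The longest, 8 bases, joined AAGGATGG at positions 41 to 48 of RNU6ATAC with CCATCCTT at positions 2 to 9 of RNU4ATAC. The others paired GTGTTGT (1 to 7) with ACAACAC (71 to 77) and GTTAGCA (23 to 29) with TGCTAAC (58 to 64). The A and B forms of U5, 116 bases each, were 94.0% identical. None of the 47 windows of 70 bases, the read length of the run, was shared between them, so a full-length read carries at least 1 base that tells them apart.

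On GRCh38 the genes lie apart except for the U5 pair. RNU11 is at chr1:28648600-28648733 and RNU12 at chr22:42615244-42615393, both on the plus strand. RNU4ATAC is at chr2:121530881-121531007 on the plus strand, inside an intron of CLASP1, which runs on the minus strand. RNU6ATAC is at chr9:134164439-134164564 on the minus strand and overlaps no annotated gene. RNU5A-1, at chr15:65296051-65296166, lies within the span of PARP16 on the other strand, and RNU5B-1 follows at chr15:65304677-65304792, 8511 bases further on. The annotation also places a lincRNA over RNU11 (AL360012.1) and over RNU12 (Z93241.1) on the same strand. These hold 62 of 65 and 81 of 81 of the RNAs' 70-base windows, and RNU4ATAC also lies in AC012447.1. None of the 3 is a row of the table, and neither the strand counted nor the treatment of reads shared by several genes is stated in the labels.

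Several features of the libraries differed with treatment beside the values below. Recovered reads ran from 2701317 to 6305586 per DMSO library and from 726043 to 1941860 per treated library, and replicate 1 of DMSO and replicate 3 of either compound had a read on only 9816 to 10407 genes against 13068 to 14616 in the rest. Structured noncoding rows of the table (small nuclear, nucleolar, Y, vault, 7S and related RNAs) took 0.0437% to 0.264% of reads in DMSO, 8.59% to 10.3% under JPX-0700 and 11.6% to 13.7% under JPX-0750. The 6 snRNAs made up 22.3% to 34.6% of the reads on these rows in DMSO, 6.33% to 12.4% under JPX-0700 and 4.69% to 5.08% under JPX-0750. The part that this general difference, library depth or preparation plays in the values of the 6 snRNAs was not tested. MV4-11 identity was checked with 13 myelomonocytic markers, of which CSF2RA and CD14 were at 0 in all libraries. The rest summed to 5747 to 8988 normalised counts in DMSO, 2694 to 4038 under JPX-0700 and 2177 to 4178 under JPX-0750. LYZ, a lysozyme of myeloid cells, was the largest part of these sums, averaging 5336, 1868 and 1557. PTPRC, CD33, FLT3 and CD4 also had lower means under both compounds. MEIS1 lay the other way, at 162, 392 and 424, as did the means of CD68 (107, 124 and 181) and ITGAM (4.38, 12.7 and 12.9). The log2 difference of CD68 under JPX-0700 was -0.79. SPI1 was mixed, at 175, 203 and 105. None of these was called, and MPO and HOXA9 did not pass the filter on low values. Of the 9 that passed the filter on low values, LYZ fell under JPX-0750 (-1.93, limma adjusted p = 0.0292, lost at 0.0854 to 0.214 without DMSO replicates 1 or 2 or JPX-0750 replicates 1 or 2). Markers of T and B cells (7 rows, sum at most 75.0) and of erythroid, epithelial and fibroblast cells (9 rows, sum at most 129.9, with HBB and EPCAM at 0) stayed low in every library.

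U11 and U12 were at or near 0 in DMSO and reached at least 827 normalised counts in every treated library. Values are normalised counts, the authors' gene counts divided by 1 factor per library. RNU11 had 0, 0 and 2.15 in DMSO replicates 1, 2 and 3, 1148, 1148 and 2209 under JPX-0700, and 3194, 2879 and 2161 under JPX-0750. Every treated library stood far above every DMSO library, whose only signal was 4 reads in replicate 3. The group means were 0.718 ± 1.24 (SD, n = 3), 1502 ± 613 and 2744 ± 529, and reads per scaled depth were 2231 times (95% counting interval 869 to 8201) and 3590 times (1401 to 13186) the DMSO level, or 1188 and 1912 times without DMSO replicate 2. Such intervals cover counting error only, since the protocol names no molecular identifiers and reads are not independent molecules.

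RNU12 had 0 reads in all 3 DMSO libraries. Its normalised counts were 1097, 827 and 3012 under JPX-0700 and 3156, 3083 and 2724 under JPX-0750, from 222 to 1635 reads per library. Against a floor of 3 reads over the DMSO group, the level was at least 3397-fold higher under JPX-0700 and at least 5409-fold higher under JPX-0750. Replicate 3 held 1084 of the 1544 JPX-0700 reads, and without it the first bound was 1763-fold; without DMSO replicate 2 the bounds were 1809-fold and 2881-fold. U11 and U12 act as 1 particle. The ratio of RNU12 to RNU11 reads was 0.956, 0.721 and 1.36 under JPX-0700 and 0.988, 1.07 and 1.26 under JPX-0750. Similar read numbers were not particular to this pair. RNU6ATAC, which is not in that particle, had 359, 349 and 594 reads under JPX-0700, where RNU11 had 249, 308 and 795.

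U4atac differed from the other 5 by being readily counted in DMSO. RNU4ATAC had 510.0, 259 and 1981 normalised counts in the DMSO libraries, from 568, 676 and 3679 reads. It had 28407, 12720 and 20014 under JPX-0700 and 7093, 7631 and 8210 under JPX-0750. The groups did not overlap, the JPX-0700 libraries being the highest and the DMSO libraries the lowest. Means were 917 ± 929.9 (SD, n = 3), 20380 ± 7850 and 7645 ± 559, which put reads per scaled depth at 22.5 times (21.8 to 23.2) and 8.84 times (8.54 to 9.16) the DMSO level. Without DMSO replicate 3 these were 59.4 and 23.3 times, and without DMSO replicate 2 13.9 and 5.46 times. DMSO replicate 3 held 3679 of the 4923 DMSO reads, and it was also the DMSO library with the largest structured share, 0.264%.

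U6atac, the partner of U4atac, was sparse in DMSO. RNU6ATAC had 25.1, 2.68 and 2.15 normalised counts there, from 28, 7 and 4 reads, then 1654, 1301 and 1651 under JPX-0700 and 2191, 1924 and 1879 under JPX-0750. The JPX-0700 libraries were more even for it than for the other 5 RNAs, and the means were 9.99 ± 13.1 (SD, n = 3), 1535 ± 203 and 1998 ± 169. Reads per scaled depth were 220.4 times (160.3 to 311) and 282 times (205 to 397) the DMSO level. DMSO replicate 1 held 28 of the 39 DMSO reads, and the ratios were 625 and 799.7 times without it and 143 and 183 times without DMSO replicate 2. The DMSO libraries did not rank alike for the pair, since replicate 1 was highest for RNU6ATAC and replicate 3 for RNU4ATAC.

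The A and B forms of U5 were almost absent in DMSO and varied widely between JPX-0700 libraries. RNU5A-1 had 0, 0 and 0.538 normalised counts in DMSO, 2304, 768 and 5747 under JPX-0700 and 1787, 1392 and 3049 under JPX-0750. RNU5B-1 had 0.898, 0 and 0.538, then 3627, 1330 and 6166, then 2585, 2501 and 2812. For both genes JPX-0700 replicate 3 was the highest of the 9 libraries and JPX-0700 replicate 2 the lowest of the treated ones. Only 1 read of RNU5A-1 and 2 of RNU5B-1 were counted in the DMSO group, so the ratios are loose: 18312 (3284 to 723531) and 13332 (2391 to 526797) for RNU5A-1 under JPX-0700 and JPX-0750, and 11100 (3070 to 91693) and 7506 (2076 to 62011) for RNU5B-1. Leaving out single libraries moved them further: without DMSO replicate 2 they were 9752 and 7100, and 5911 and 3998. Without DMSO replicate 1 those of RNU5B-1 were 17769 and 12016, and without DMSO replicate 3 RNU5A-1 had 0 DMSO reads and was at least 4072-fold and at least 2964-fold higher. Without JPX-0700 replicate 3 the JPX-0700 ratios were 8116 and 6576. The B form gave 1.57, 1.73 and 1.07 reads per read of the A form under JPX-0700 and 1.45, 1.80 and 0.922 under JPX-0750.

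**Figure D1:**
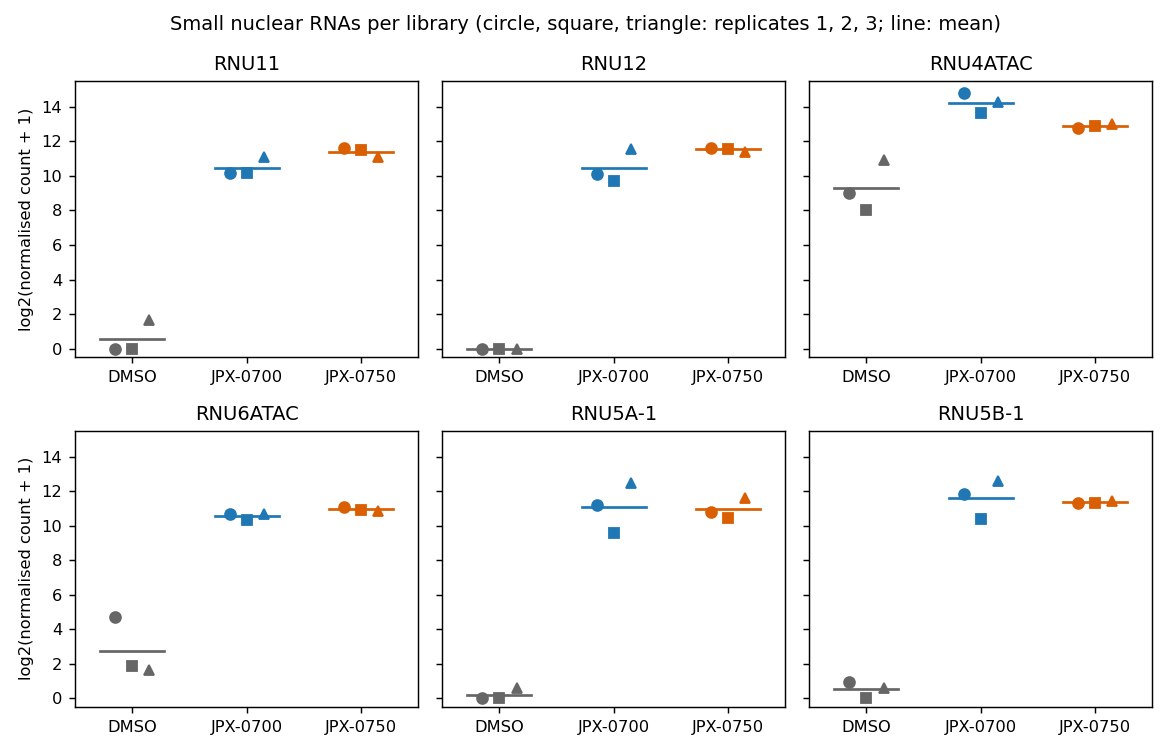
Normalised count of each of the 6 snRNAs in the 9 libraries, on a log2(normalised count + 1) scale; circles, squares and triangles are replicates 1, 2 and 3 and lines are group means of the log2 values. RNU4ATAC is the only one of the 6 whose DMSO libraries lie above 100 normalised counts, at 259 to 1981.

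All 6 had every treated library above every DMSO library with both compounds, as did, in the higher direction, 16.5% of the 12301 rows tested under JPX-0700 and 19.7% under JPX-0750. These contrasts chose the 6 RNAs, so the counts describe them and support nothing. On the log2(normalised count + 1) scale the differences from DMSO ranked between 10 and 315 among the 12301 rows under JPX-0700, where RNU5B-1 was highest at 11.08 and RNU4ATAC lowest at 4.91. With JPX-0750 they ranked between 6 and 721, RNU12 being highest at 11.54 and RNU4ATAC lowest at 3.57. RNU12 is at 0 in DMSO, so its log2 difference depends on the added constant and is no bound. Both compounds are set against the same DMSO libraries, so the agreement between the 2 sets of differences is not independent.

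Per base of annotated length the order of the RNAs was not the same in the 3 groups. Reads near a 3′ end need not scale with length, so these values give no ranking of abundance. By normalised count under JPX-0750, RNU12 (2988) and RNU11 (2744) stood above RNU5B-1 (2633), unlike in the order per base. With DMSO, RNU4ATAC had 7.22 normalised counts per base, RNU6ATAC 0.0793 and the other 4 at most 0.00536. With JPX-0700, RNU4ATAC stood at 160.5, followed by RNU5B-1 at 32.0, RNU5A-1 at 25.3, RNU6ATAC at 12.2, RNU11 at 11.2 and RNU12 at 11.0. With JPX-0750, RNU4ATAC stood at 60.2, then RNU5B-1 at 22.7, RNU11 at 20.5, RNU12 at 19.9, RNU5A-1 at 17.9 and RNU6ATAC at 15.9. Below RNU4ATAC the library ranges of each pair of neighbours in these orders overlapped in both treated groups. RNAs further apart could separate: under JPX-0750 the per-base ranges of RNU5B-1, RNU12 and RNU6ATAC did not overlap. The normalised counts of RNU5B-1 (2501 to 2812) and RNU12 (2724 to 3156) did overlap there.

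The make-up of the reads on the 6 RNAs showed differences between the groups more directly, since a share within a library needs no scaling. RNU4ATAC took 95.1%, 99.0% and 99.7% of them in the DMSO libraries, 74.3%, 70.3% and 51.6% under JPX-0700 and 35.5%, 39.3% and 39.4% under JPX-0750. RNU11 and RNU12 each took 10.4% to 16.0% under JPX-0750 and 2.87% to 7.76% under JPX-0700. There were 20.3, 96.6 and 919.8 reads of RNU4ATAC per read of RNU6ATAC in DMSO, 17.2, 9.78 and 12.1 under JPX-0700, and 3.24, 3.97 and 4.37 under JPX-0750. The JPX-0750 ratios lay below all the others, and those in DMSO above all the others.

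**Figure D2:**
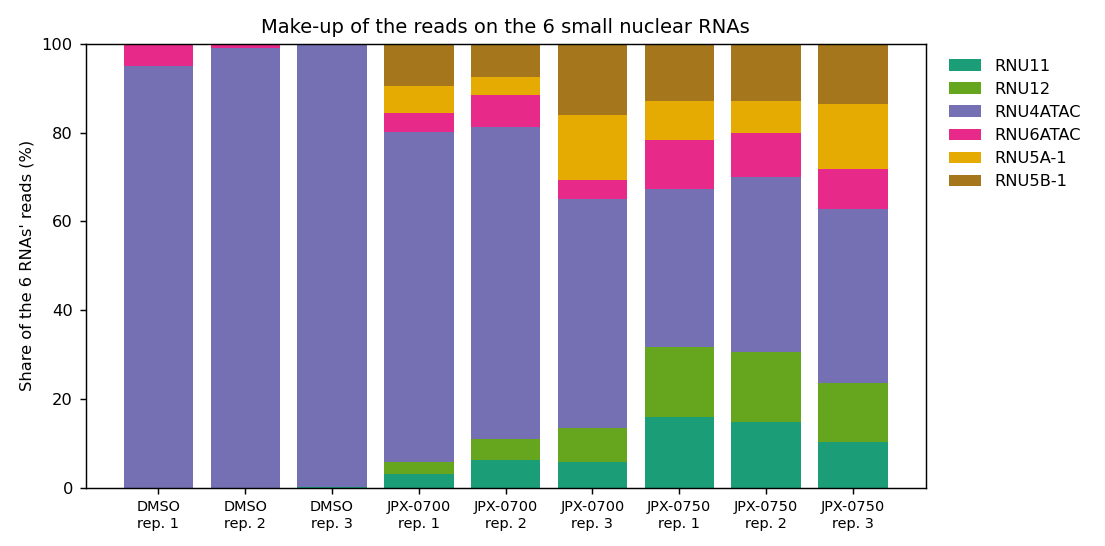
Share (%) of each of the 6 snRNAs in their summed reads, 1 bar per library. The RNU4ATAC share falls in 3 separate ranges, 95.1% to 99.7% in DMSO, 51.6% to 74.3% under JPX-0700 and 35.5% to 39.4% under JPX-0750.

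The direct comparison of the compounds is not the contrast by which the 6 RNAs were chosen, and it was tested as 1 pair. It uses the same treated libraries and takes its spread from all 9 libraries, so independence of that choice was not shown. None of the 6 differed after adjustment over 12301 rows, and neither did any other row (0%): limma's test called 0, with 395 (3.21%) at an unadjusted p under 0.05, and limma voom on recovered reads also called 0. RNU4ATAC had the largest difference of the 6, -1.34 ± 0.57 (log2, SE; 95% interval -2.53 to -0.15) for JPX-0750 minus JPX-0700, and by limma p was 0.0294 before and 0.848 after adjustment. It was lower in 3 of 3 JPX-0750 libraries than in any JPX-0700 library, which held for 3.63% of rows, and its adjusted p was at least 0.514 under every alternative tried.

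RNU11 and RNU12 lay in the other direction. The difference was 0.92 ± 0.62 for RNU11 (-0.38 to 2.23, limma adjusted p = 0.848) and 1.09 ± 0.62 for RNU12 (-0.20 to 2.39, adjusted p = 0.848), and for each JPX-0700 replicate 3 overlapped the JPX-0750 libraries. RNU6ATAC differed by 0.39 ± 0.67 (-1.03 to 1.80, adjusted p = 0.942), with all JPX-0750 libraries above all JPX-0700 libraries, as for 4.72% of rows. The U5 genes differed by -0.14 ± 0.70 (RNU5A-1, -1.62 to 1.33, adjusted p = 0.987) and -0.24 ± 0.60 (RNU5B-1, -1.51 to 1.03, adjusted p = 0.971) and overlapped. Each interval reaches at least a doubling or halving in 1 direction, so these data do not show that the compounds act alike on any of the 6.

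**Figure D3:**
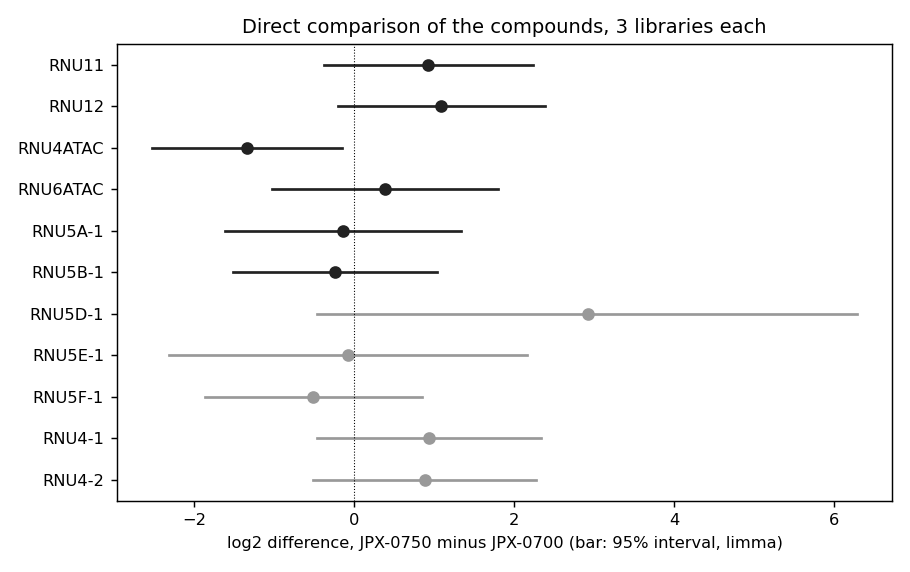
Difference of JPX-0750 minus JPX-0700 (log2, limma) with its 95% interval, from 3 libraries of each compound; the 6 snRNAs are in black and further U5 and U4 rows in grey. Of the black intervals, that of RNU4ATAC (-2.53 to -0.15) is the 1 that leaves out 0, and it did not pass after adjustment.

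Shares of all reads, which use no scaling factor, were compared as well. The 6 RNAs together took 0.807% ± 0.293 (SD, n = 3) of reads under JPX-0700 and 0.593% ± 0.0489 under JPX-0750, against 0.0414% ± 0.0436 in DMSO, and the difference between the compounds, -0.214 percentage points, was within their spread (exact permutation test, two-sided p = 0.400). RNU4ATAC took 0.535% ± 0.259 and 0.226% ± 0.0303, RNU11 0.0370% ± 0.00511 and 0.0804% ± 0.0118, RNU12 0.0385% ± 0.0177 and 0.0879% ± 0.00483, and RNU6ATAC 0.0399% ± 0.00827 and 0.0587% ± 9.71e-04 under JPX-0700 and JPX-0750. The log2 ratio of RNU4ATAC to RNU6ATAC reads was 3.66 ± 0.410 and 1.94 ± 0.221, a difference of -1.73. Each of these 5 measures separated the compounds completely, with the exact permutation p = 0.100, the smallest that 3 against 3 libraries can give, and 0.220 after adjustment over the 11 measures compared. How many of all rows separate in this way on the scale of read shares was not computed. Structured rows as a whole also separated, with 8.59% to 10.3% of reads under JPX-0700 and 11.6% to 13.7% under JPX-0750. Separation is thus not particular to the 6 RNAs, and RNU4ATAC lay in the other direction. The U5 shares did not separate them (exact permutation p = 1 for RNU5A-1 and 0.700 for RNU5B-1).

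Across the 6 treated libraries some of the RNAs varied together, as a description over 6 points that share library depth and scaling. These points are 3 libraries of each compound, and the difference between the compounds was not removed. The correlations therefore include that difference. Pearson's r of log2 values was 0.95 between RNU11 and RNU12, 0.94 between RNU5A-1 and RNU5B-1, and 0.85 and 0.82 between RNU6ATAC and RNU11 or RNU12. RNU4ATAC went against RNU11 (r = -0.71), RNU6ATAC (-0.56) and RNU12 (-0.53) and had 0.34 and 0.47 with the U5 genes. With the same U5 genes RNU12 had 0.54 and 0.49, RNU11 0.27 and 0.24, and RNU6ATAC 0.30 and 0.30. Over all 9 libraries, where the step from DMSO dominates, the 5 rows most like the mean of the 6 RNAs were SNORD2, SNORD14E, SGK1, SNORA48 and SNORD82, each with r = 0.997, and 42 rows reached 0.99. Of these 5 SGK1 encodes a kinase, and the rest are small nucleolar RNAs.

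The other snRNA rows split into those that were counted and those at 0 throughout. Of the 20 major spliceosome snRNA symbols listed, 16 were rows of the table and 11 of these, RNVU1-18 and the U1, U2 and U6 rows, were at 0 in all libraries. The rows of U1 (4), U2 (1) and U6 (5), and that of U7 (1), the RNA of histone mRNA processing, were at 0 in all 9 libraries, while 10 of 12 U1 variant rows had reads, summing to 6 in DMSO, 675 under JPX-0700 and 1239 under JPX-0750. Among the tested rows, 710 (5.77%) were called under JPX-0700, 649 (5.28%) higher and 61 (0.496%) lower, and 489 (3.98%) under JPX-0750, 480 (3.90%) higher and 9 (0.0732%) lower. At an unadjusted p under 0.05 the shares were 19.6% and 14.2%. With every library scaled to the same total these splits were 378 against 279 and 304 against 57. The median of all tested rows was 0.14 and 0.26 as deposited, and -0.52 and -0.25 under that scaling. Of the 5 tested major snRNA rows 4 rose under JPX-0700 and 5 under JPX-0750. All of these rows but RNU5F-1 have DMSO means under 5 and passed the filter through their treated libraries. The counts therefore describe the rows and support nothing. Their median log2 differences were 7.88 and 7.80, or 9.48 and 9.04 with the 2 rows at 0 in DMSO set at their bounds.

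U4, which plays in the major spliceosome the part of U4atac, was sparse in DMSO where U4atac was not. RNU4-2 averaged 3.71 ± 4.08 normalised counts (SD, n = 3) in DMSO, 3848 ± 2230 under JPX-0700 and 6393 ± 539 under JPX-0750, and RNU4-1, 97.2% identical to it, 2.81 ± 4.12, 1968 ± 714 and 3638 ± 245. Both rose with both compounds (limma, largest adjusted p = 2.57e-08). Both passed the filter on low values only through treated libraries, so these calls are descriptive. There were 84.5 and 245 reads of RNU4ATAC per read of RNU4-2 in DMSO replicates 2 and 3, 3.14 to 9.47 under JPX-0700 and 1.07 to 1.32 under JPX-0750, while replicate 1 of DMSO had no RNU4-2 read. U4atac is only 55.3% identical to RNU4-2, and the forms of U4 are not near-identical copies of it.

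The remaining U5 genes are less alike in sequence than the A and B forms (81.9% to 88.3% identity to RNU5A-1) but also hold the Sm word. RNU5F-1 was the 1 U5 row with more than a few DMSO reads: 40.4, 18.8 and 92.6 normalised counts, then 1680 ± 1031 (SD, n = 3) under JPX-0700 and 985 ± 230.1 under JPX-0750, log2 differences of 5.02 ± 0.64 and 4.51 ± 0.64 (limma adjusted p = 5.10e-05 and 1.65e-04). It lies within ARMH1. RNU5E-1, at 0 in DMSO, was at least 713-fold and at least 525-fold higher (limma adjusted p = 8.28e-05 and 9.64e-05), with means of 335 ± 329 and 239 ± 119. Those bounds were 264-fold without JPX-0700 replicate 3, which held 255 of 324 reads, 319.6-fold without JPX-0750 replicate 3, and 379.7-fold and 279.6-fold without DMSO replicate 2. RNU5D-1, also at 0 in DMSO, had 96.8, 33.5 and 0 normalised counts under JPX-0700 (adjusted p = 0.183) and 109.5, 105 and 123 under JPX-0750, at least 216-fold higher (limma adjusted p = 0.0183). The bound was 115-fold without DMSO replicate 2. The call was lost without any 1 of DMSO replicates 1 to 3 or JPX-0750 replicates 1 and 2, with adjusted p from 0.0592 to 0.0870. RNU5E-1 and RNU5D-1, at 0 in DMSO, passed the filter only through treated libraries, so their calls are descriptive.

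Among the protein components of the minor spliceosome, RNPC3 rose under both compounds. Of 14 tested proteins of the U11/U12 particle and the minor tri-snRNP, 2 rose and 0 fell under JPX-0700, and 1 rose and 0 fell under JPX-0750, with medians of 0.35 and 1.0 (log2). Over all tested rows, against which this list and those below are read, 5.28% and 3.90% rose and 0.496% and 0.0732% fell. Without the 3 libraries that detected the fewest genes, 6 and 5 of the 14 rose and 0 fell, in a fit with 2478 and 2507 rows higher in all. By voom 3 and 2 rose, with 1224 and 920 rows higher in all, and with total-sum scaling 1 and 1. RNPC3, which encodes the 65K protein that binds U12 RNA, had 71.8, 45.2 and 143 normalised counts in DMSO, 1300, 615 and 689 under JPX-0700 and 965, 728 and 626 under JPX-0750. All treated libraries lay above all DMSO libraries. Its log2 differences were 3.39 ± 0.53 and 3.28 ± 0.53 (limma adjusted p = 4.45e-04 and 6.80e-04), and it rose under every alternative tried. These differences ranked 805 and 874 among the 12301 rows. The annotated span of RNPC3 overlaps AMY2B on the same strand. CRIPT, a small protein of the minor spliceosome, rose under JPX-0700 (2.49 ± 0.66, limma adjusted p = 0.0312) and had 1.37 under JPX-0750 (adjusted p = 0.363). The CRIPT call was lost with total-sum scaling (0.0966) and without DMSO replicate 2 (0.130), DMSO replicate 3 (0.0997) or JPX-0700 replicate 3 (0.0611).

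Of 14 tested proteins of U5 and the shared tri-snRNP, 0 rose and 1 fell with each compound, with medians of -0.86 and -0.33; by voom 0 and 1 fell. With total-sum scaling 4 and 1 fell, in a fit with 279 and 57 rows lower in all, and without the 3 libraries that detected the fewest genes 4 and 2 fell, in a fit with 666 and 578 rows lower. With JPX-0700 it was PPIH, a cyclophilin of the tri-snRNP (-2.18 ± 0.62, limma adjusted p = 0.0467), and under JPX-0750 TXNL4A, the U5 15K protein (-2.03 ± 0.54, limma adjusted p = 0.0392). Neither call was stable: without single libraries the adjusted p of PPIH reached 0.0581 to 0.220 (DMSO replicates 1 to 3, JPX-0700 replicates 1 and 2, JPX-0750 replicates 1 and 2). That of TXNL4A reached 0.0777 to 0.204 (DMSO replicates 1 to 3, JPX-0750 replicates 1 to 3). With the replicate number as a block they were 0.0678 and 0.0609. SNRNP200, the helicase of U5, averaged 416 ± 74.5, 363 ± 183 and 331 ± 30.7 normalised counts and EFTUD2, its GTPase, 169 ± 77.6, 173 ± 95.7 and 178 ± 41.8, in DMSO, JPX-0700 and JPX-0750 (both named after their values were seen).

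Genes that make, trim and assemble snRNAs mostly did not pass. Of 25 tested genes of snRNA transcription and 3′ processing, limma called 0 under JPX-0700 (3 at an unadjusted p under 0.05, and 1 by voom) and 1 rose under JPX-0750, with medians of -0.39 and 0.41. Without the 3 libraries that detected the fewest genes 3 rose and 1 fell, and 2 rose, and with total-sum scaling 0 passed. INTS6, a subunit of Integrator, had 2.23 ± 0.61 under JPX-0750 (limma adjusted p = 0.0459) and 2.09 ± 0.61 under JPX-0700 (adjusted p = 0.0505). NABP1, which joins an Integrator-bound complex, had 2.45 (adjusted p = 0.138) under JPX-0700. The INTS6 call was lost without DMSO replicates 1, 2 or 3, JPX-0700 replicate 2 or JPX-0750 replicates 1 or 2 (adjusted p 0.0537 to 0.284), with the replicate block (0.0547), with total-sum scaling (0.182) and with no filter on low values (0.0725). Of 21 tested genes of snRNP assembly, cap and transport, LARP7, which binds 7SK RNA, rose under JPX-0700 (1.65 ± 0.44, limma adjusted p = 0.0335) and 0 fell, and under JPX-0750 limma called 0 (1 at an unadjusted p under 0.05, and 0 by voom). With total-sum scaling 0 passed under JPX-0700 and 1 fell under JPX-0750, and without the 3 libraries that detected the fewest genes 2 rose and 2 fell, and 1 rose and 3 fell. The medians were -0.70 and -0.45. The 2 nearest the threshold under JPX-0750 were CLNS1A (-1.24, adjusted p = 0.235), a chaperone of Sm proteins, and LARP7 (0.83, adjusted p = 0.417). LARP7 lost its call without DMSO replicates 1 or 2, JPX-0700 replicates 1 or 3 or JPX-0750 replicates 1 or 2 (0.0507 to 0.158), and with total-sum scaling (0.189).

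Genes that hold a U12-type intron, whose transcripts need the minor spliceosome, gave no call in 17 tested under either compound by limma, with medians of 0.26 and 0.44. At an unadjusted p under 0.05 there were 2 under JPX-0700 and 0 under JPX-0750, by voom 2 rose under JPX-0700, and without the 3 libraries that detected the fewest genes 2 rose under each and 1 fell under JPX-0750. ERCC5, a DNA repair nuclease, was at 0 in DMSO and averaged 33.0 ± 28.6 normalised counts (SD, n = 3) under JPX-0700 and 29.2 ± 26.4 under JPX-0750 (limma adjusted p = 0.383 for the latter). These are levels near transcript 3′ ends and hold no measure of intron retention. Of 18 tested genes of the RNA exosome and poly(A) adapters, which degrade or tail noncoding RNA, limma called 0 under either compound, with medians of -0.28 and -0.07. At an unadjusted p under 0.05 there were 2 and 1, and voom called 1 and 0. Without the 3 libraries that detected the fewest genes 1 rose and 2 fell under JPX-0700, and 2 rose and 1 fell under JPX-0750. SKIV2L2, the exosome helicase, had 1.53 ± 0.50 (adjusted p = 0.0866) and 1.30 ± 0.50 (adjusted p = 0.208), EXOSC10 -1.74 (adjusted p = 0.169) under JPX-0700, and EXOSC2 -2.50 (adjusted p = 0.372) under JPX-0750. In the direct comparison of the compounds 0 genes of any list were called.

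**Figure D4:**
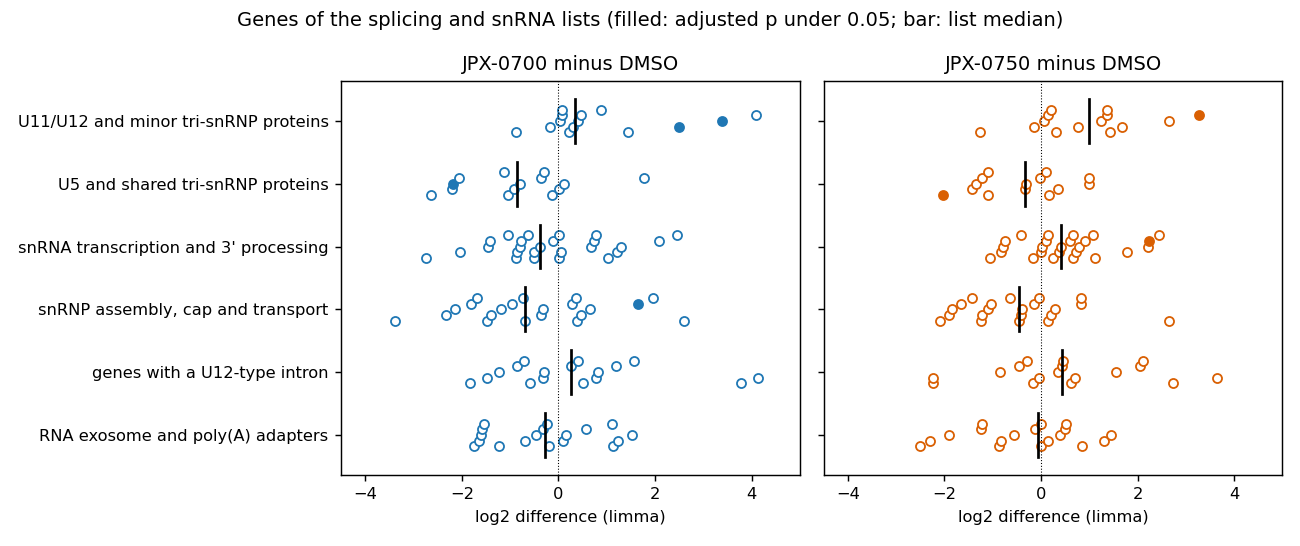
Differences from DMSO (log2, limma) of each tested gene in 6 lists of snRNA and splicing genes, JPX-0700 left and JPX-0750 right; filled points have an adjusted p under 0.05 and bars are list medians, which lie between -0.86 and 1.0. The filled points are RNPC3 and CRIPT, PPIH and LARP7 on the left and RNPC3, TXNL4A and INTS6 on the right.

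Protein-coding neighbours of the 6 genes did not show a like difference. CLASP1, a microtubule protein whose intron holds RNU4ATAC, averaged 65.1, 101 and 195 normalised counts in DMSO, JPX-0700 and JPX-0750 (log2 -0.13 and 1.56, limma adjusted p = 0.953 and 0.477). PARP16, which spans RNU5A-1, averaged 12.1, 4.31 and 10.2 (adjusted p = 0.598 and 0.789). POLDIP3, which starts 282 bases from RNU12 on the other strand, averaged 251, 91.7 and 139 (adjusted p = 0.198 and 0.631), and TAF12, GMEB1, CYB5R3 and WDR5 were likewise not called. Of the flanking rows 2 passed. NIFK-AS1, an antisense RNA 118643 bases from RNU4ATAC, rose with both compounds (4.0 ± 0.67 and 3.76 ± 0.67, limma adjusted p = 7.95e-04 and 0.00166). RXRA, a nuclear receptor 152534 bases from RNU6ATAC, fell under JPX-0700 (-2.58 ± 0.69, limma adjusted p = 0.0333), a call lost without any 1 DMSO library (0.0803 to 0.149). TFCP2L1, CILP and IGDCC3, the remaining neighbours in the table, were below the filter on low values.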

How the data were processed

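Per the submitters' processing notes, the tools were STAR 2.4.2a and featureCounts 2.0.3, with DESeq2, SAMtools 1.4 and FastQC 0.11.9, on GRCh38. The annotation, the strand counted and the treatment of multimapping reads are not stated in the labels. The authors deposited 1 table of normalised counts for 26929 gene symbols in 9 libraries, with decimal commas. All values (100%, tolerance 1e-06) were whole multiples of 1 step per library, 0.383 to 4.61 normalised counts, which gave whole reads. Because the deposited values are normalised, a count model was not the main test.

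Rows with a mean of at least 5 normalised counts were kept (12301, all 6 snRNAs among them; 8846 rows were 0 throughout). limma 3.58.1 in R 4.3.3 fitted log2(normalised count + 1) with 1 mean per group, all 9 libraries, 6 residual degrees of freedom and a variance trend. Tests were two-sided with Benjamini-Hochberg adjustment over all rows, called at 0.05, and "rose" and "fell" refer to this. The code was tested on simulated data. The added 1 understates folds of low rows. Ratios of reads have exact 95% intervals, and a group at 0 was set to a floor of 3 reads over the group. Library shares were compared by exact permutation tests. Sequences and coordinates are from GENCODE 29.

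The 6 snRNAs and all gene lists were chosen with earlier results of these data known. Named genes were the 6, other U4 and U5 rows, up to 4 called genes of each list by smallest p (otherwise the 2 with the smallest p), overlapping and nearest annotated genes, and the 5 rows most correlated with the mean of the 6. Replicate numbers in the labels were checked for pairing by the correlation of deviations from group means. Same-numbered JPX-0700 and JPX-0750 libraries had r = 0.13, 0.17 and 0.19, against -0.20 to 0.15 for pairs with different numbers. These ranges overlap, and every negative value set replicate 3 of either compound against replicate 1 or 2 of the other. The values therefore do not show pairing by number. DMSO libraries had r from -0.14 to -0.04 with same-numbered treated libraries. Alternatives were pseudocounts of 0.5 and 5, no filter, a mean of at least 50, total-sum scaling, a replicate block and leaving out each library, and, chosen after seeing the data, limma voom on recovered reads and leaving out the 3 libraries with the fewest genes. Some of the genes and sequences that this rule names are not reported here.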

Additional observations from a re-analysis of the deposited data

How the results depend on the processing

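The mean log2 difference of the 6 snRNAs from DMSO, which includes RNU12 at 0 and so moves with the constant added, was 9.18 under JPX-0700 and 9.29 under JPX-0750. It was 7.65 and 7.76 with a pseudocount of 5, 10.26 and 10.36 with voom on recovered reads, and 9.87 under JPX-0750 at a pseudocount of 0.5. Every difference of a single snRNA from DMSO kept its sign in 17 of 17 alternatives, and 183 of 204 values moved by less than their spread. The filter settings, the replicate block and leaving out a library of the other compound cannot move these values. The 6 were also chosen for this difference, so the 2 counts are descriptive and no evidence of robustness. Between compounds RNU4ATAC ran from -1.64 to -1.06, RNU11 from 0.77 to 1.4, RNU12 from 0.71 to 1.71 and RNU6ATAC from 0.27 to 0.58. RNU5A-1 went from -0.89 without JPX-0700 replicate 2 to 0.56 without JPX-0700 replicate 3, and RNU5B-1 from -0.85 to 0.26 for the same libraries, so neither has a direction. The mean of the 6 went from -0.27 to 0.47 there. The number of rows called was 710 under JPX-0700 and 489 under JPX-0750. It was 1299 and 945 with voom, and 3144 and 3085 once the 3 libraries that detected the fewest genes were dropped. Leaving out single libraries gave 389 to 1018 and 254 to 1143: for JPX-0700, 422 without DMSO replicate 1 and 389 without DMSO replicate 2, and for JPX-0750, 308 without DMSO replicate 2, 270 without JPX-0750 replicate 2, 254 without JPX-0750 replicate 1 and 1143 without JPX-0700 replicate 3. The direct comparison had 0 under all of them. With the replicate block the counts were 694, 473 and 0, and it ended no call of a named gene other than those of PPIH, TXNL4A and INTS6; DMSO libraries share only a number with treated ones. DMSO reads limit the ratios of RNU11, RNU5A-1 and RNU5B-1, which rest on 4, 1 and 2 reads.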
